A study of Mus musculus with 6 samples.

Results

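The genes described here are 42 genes of plasma cell identity and of the secretory machinery of the endoplasmic reticulum (ER), chosen by name from an expression table of 55951 genes. All 42 were found in it by symbol, and Ddit3, which has 2 rows, was read from the row with the higher mean. The genes were measured in 2 groups of 3 libraries of polyadenylated RNA, made from splenic T cells of C57BL/6 mice with an S100A4-EGFP reporter and asthma induced by ovalbumin (OVA). The S100A4-positive group holds CD3+ CD8+ CD4- CD44+ CD62L- cells that were EGFP+, and the S100A4-negative group holds cells of the same gate that were EGFP-. Both groups thus share the reporter, the strain and the asthma model, and the treatment label of every sample reads untreated. The labels used here give neither the age of the mice nor whether the 3 samples of a group came from separate animals, so p-values measure only the spread between these samples.

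Plasma cells are the antibody-secreting end stage of B cells. Their transcription factors IRF4, Blimp-1 and XBP1 shut down the B cell programme and expand the ER, where secreted and membrane proteins are translocated, folded and inspected. The unfolded protein response senses unfolded protein in that compartment through IRE1, PERK and ATF6 and raises chaperones and degradation factors. T cells and macrophages use the same general machinery at lower output, and CD8+ effector T cells also use IRF4 and Blimp-1.

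Levels are FPKM as deposited by the authors (fragments per kilobase of transcript, scaled to the depth of the library). Fold changes are differences of the mean log2(FPKM + 1), S100A4-positive less S100A4-negative. The added 1 shrinks the differences of genes with few reads. A gene was called at an adjusted p under 0.05 in limma, a linear-model test fitted across the 13241 genes whose FPKM averaged 1 or more. The libraries held 14925260 to 18660188 reads recovered from the deposited values. The gene S100a4, after which the reporter is named, was low. It had 1.27, 4.02 and 1.52 FPKM in S100A4-positive libraries and 0, 0.405 and 0.129 FPKM in S100A4-negative libraries. EGFP, on which the cells were sorted, was not read here.

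The RNA of both groups held markers that the gate should exclude. The summed level of 12 T cell markers ran from 320 to 474 FPKM in S100A4-positive libraries and from 2075 to 2463 FPKM in S100A4-negative libraries, and all 12 were called lower. The 14 macrophage and monocyte markers summed to 7545 to 8221 FPKM in S100A4-positive libraries and 516 to 762 FPKM in S100A4-negative libraries, and all 14 were called higher. The data of the S100A4-positive libraries therefore go against a pure CD8+ T cell label. Those of the S100A4-negative libraries do so too, since neutrophil markers summed to 3274 to 4878 FPKM there. Sums of different marker lists do not compare numbers of cells, because genes differ in their level per cell. Antibody genes took 1.34%, 0.550% and 0.495% of the reads in S100A4-positive libraries and 7.76%, 8.68% and 4.27% in S100A4-negative libraries. In such bulk samples, fewer cells of a type and less RNA per cell cannot be told apart, and the part of these other cells in any result below was not tested.

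Of the 6 plasma cell transcription factors, surface and lumen proteins, 5 fell in S100A4-positive libraries and Prdm1 rose, while 27 of the other 36 genes, those of the ER machinery, were not called. Of the 42, 10 fell, 5 rose and 27 did not pass the test. That is 35.7% called, against 62.3% of all tested genes. By direction, 23.8% fell, against 43.4% of all tested genes, and 11.9% rose, against 19.0%. In 23 of the 42 genes the groups did not overlap, or 54.8%, against 70.0% of all tested genes. All S100A4-positive libraries lay below all S100A4-negative libraries in 49.1% of all tested genes and above them in 20.9%. The median log2 fold change of the 42 was -0.028, while that of all tested genes was -0.36. All 42 genes passed the filter on low values. Together they took 0.773%, 0.759% and 0.776% of the reads in S100A4-positive libraries and 0.785%, 0.862% and 0.806% in S100A4-negative libraries.

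**Figure D1:**
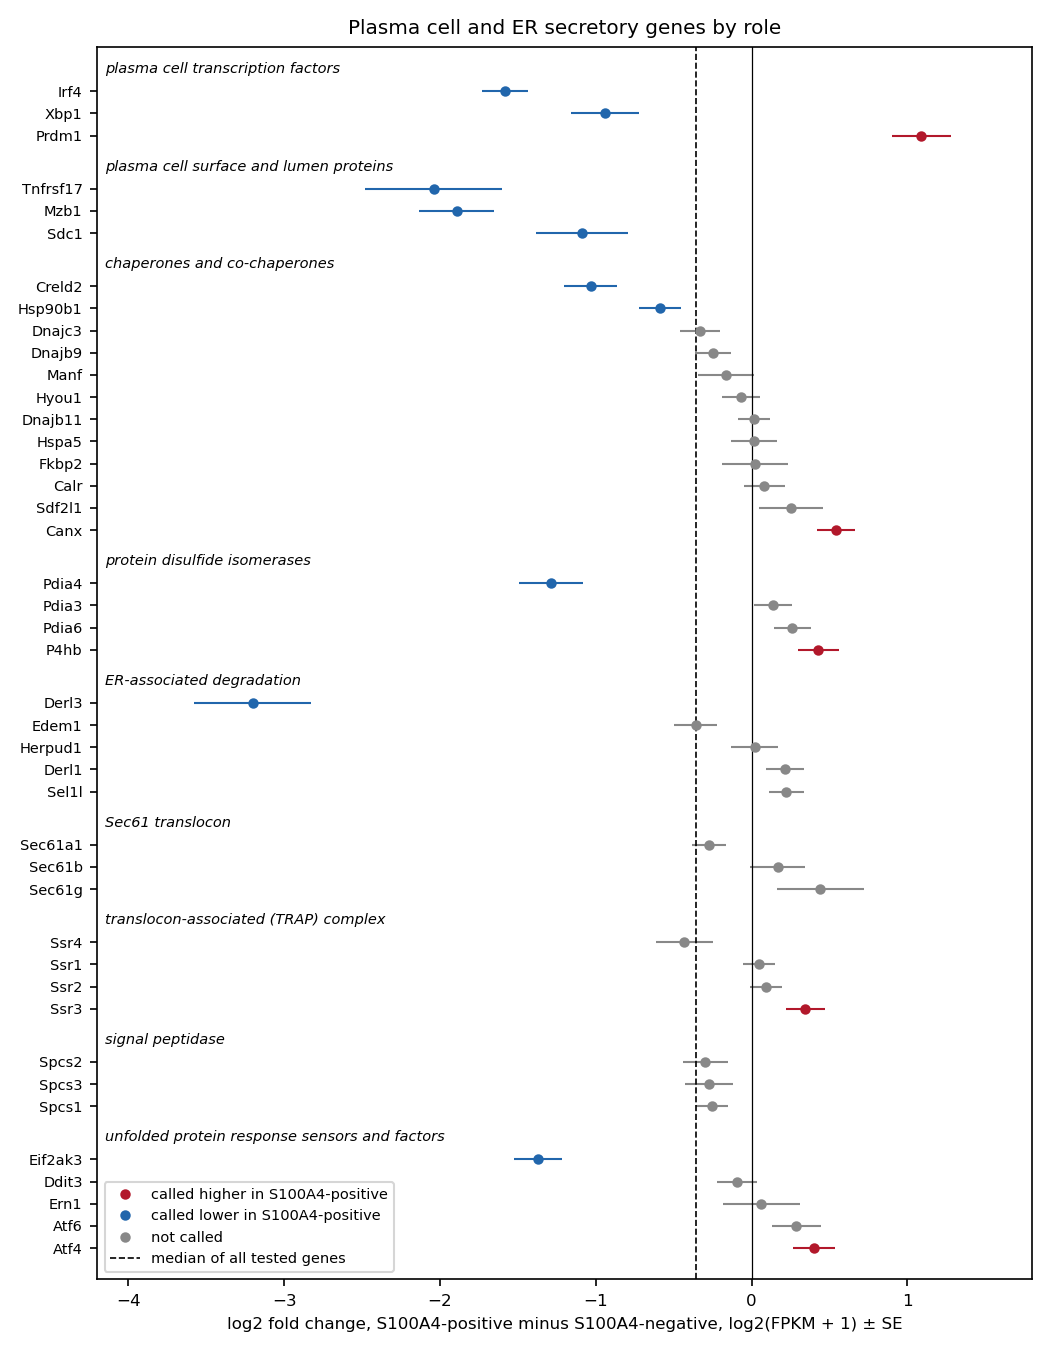
Log2 fold changes on the x axis, S100A4-positive less S100A4-negative in log2(FPKM + 1), with their standard errors, for the 42 genes grouped by role; colour marks the call and the dashed line the median of all tested genes at -0.36. The plasma cell genes lie on the left, apart from Prdm1 at 1.09, and most chaperone, translocon and signal peptidase genes lie between the dashed line and slightly above 0.

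The direction of small changes depended on the scaling. Rescaling each library by median-of-ratios raised the median of all tested genes by 0.34 log2 units. After it 7 of the 42 genes were called lower, against 24.3% of all tested genes, and 17 were called higher, against 27.7%, so that 24 were called in all, against 52.0% of all tested genes. Quantile normalization gave 11 lower and 5 higher, against 31.6% and 22.9% of all tested genes, or 54.5% in both directions. The genes called lower on the deposited scale and after median-of-ratios rescaling were Irf4, Mzb1, Tnfrsf17, Creld2, Pdia4, Derl3 and Eif2ak3, and that rescaling ended the lower calls of Xbp1, Sdc1 and Hsp90b1 (limma adjusted p = 0.0861, 0.0988 and 0.202). Of the 42 genes, 6 were called higher and 6 lower in the authors' deposited table, against 19.8% and 13.8% of the genes tested here, 33.7% in both directions. Of these 12 calls, 11 were also made here in the same direction, and the other was Atf6, called higher in the authors' deposited table with a log2 fold change of 0.70. Xbp1, Sdc1, Hsp90b1 and Creld2, called lower here, were not called by the authors. Their deposited log2 fold changes were -0.59, -0.74, -0.20 and -0.69. A relative value, below, is a gene's log2 fold change minus the median of all tested genes.

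**Figure D2:**
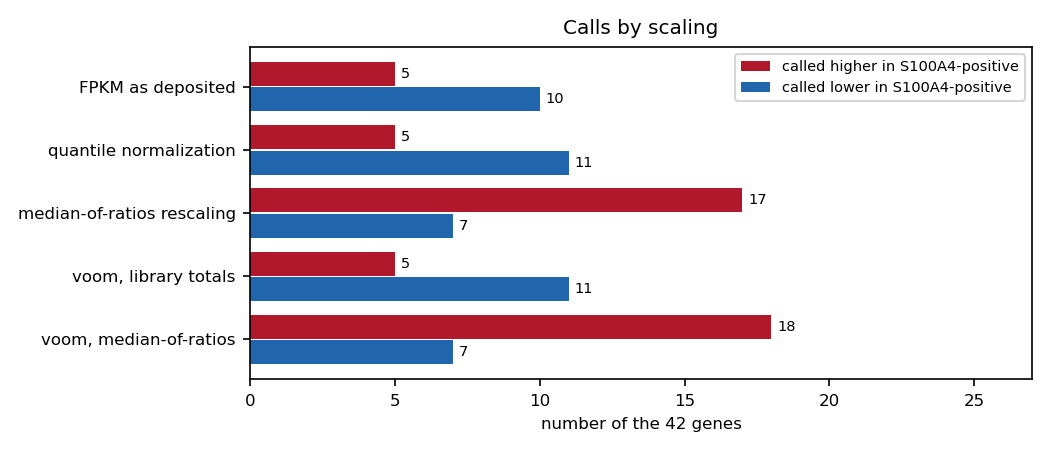
Number of the 42 genes called higher or lower in S100A4-positive libraries on the x axis, for limma on FPKM as deposited, after 2 rescalings, and for voom (limma on recovered reads) with 2 kinds of library factor. Median-of-ratios factors turn 5 higher and 10 lower calls into 17 higher and 7 lower.

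The 3 transcription factors of plasma cells moved in both directions. Irf4, the factor that B cells need to become plasma cells, had 37.2, 45.5 and 35.9 FPKM in S100A4-positive libraries, against 104, 123 and 134 FPKM in S100A4-negative libraries. All S100A4-positive libraries lay far below all S100A4-negative ones, with a log2 fold change of -1.58 (standard error 0.15, limma adjusted p = 0.000159) and a relative value of -1.22. Xbp1, whose product drives ER expansion, had 212, 154 and 180 FPKM in S100A4-positive libraries and 365, 442 and 259 FPKM in S100A4-negative libraries. Its groups did not overlap and it fell by 0.94 (standard error 0.22, limma adjusted p = 0.00773), a call that median-of-ratios rescaling ended. The table gives 1 value per gene, so the form of Xbp1 mRNA that IRE1 splices was not measured apart from the unspliced form.

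Prdm1, which encodes Blimp-1, the repressor that ends the B cell programme, went the other way. It had 34.4, 40.5 and 42.7 FPKM in S100A4-positive libraries and 19.7, 21.4 and 13.4 FPKM in S100A4-negative libraries. Every S100A4-positive library lay above every S100A4-negative one, and the gene rose by 1.09 (standard error 0.19, limma adjusted p = 0.00220). The calls of Irf4 and Prdm1 held under all 15 alternatives run, with adjusted p of at most 0.00126 for Irf4 and 0.0103 for Prdm1. Within a library, where the scaling cancels, the ratio of Irf4 to Prdm1 FPKM was 1.08, 1.12 and 0.840 in S100A4-positive libraries and 5.26, 5.76 and 10.1 in S100A4-negative libraries. This pair, like the other pairs of genes set against each other below, was chosen after the values were seen.

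The plasma cell surface and ER lumen proteins all fell. Tnfrsf17, which encodes BCMA, the receptor through which plasma cells receive survival signals, had 1.96, 0.658 and 0.495 FPKM in S100A4-positive libraries, against 9.32, 10.9 and 3.16 FPKM in S100A4-negative libraries. The groups did not overlap, and the log2 fold change was -2.04 (standard error 0.44, limma adjusted p = 0.00559), from 7 to 158 reads a library. Mzb1, an ER protein of B and plasma cells that assists antibody assembly, had 0.916, 1.46 and 1.79 FPKM in S100A4-positive libraries and 6.86, 10.8 and 6.24 FPKM in S100A4-negative libraries. The gene fell by 1.89 (standard error 0.24, limma adjusted p = 0.000584), from 10 to 124 reads a library. Mzb1 shares 57.2% of its exon bases with a neighbouring gene on the same strand, so its level is uncertain.

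Sdc1, which encodes syndecan-1 (CD138), the surface proteoglycan used to identify plasma cells, had 28.5, 22.2 and 14.2 FPKM in S100A4-positive libraries and 50.9, 57.6 and 31.9 FPKM in S100A4-negative libraries. Its highest S100A4-positive library lay under its lowest S100A4-negative one. It fell by 1.09 (standard error 0.30, limma adjusted p = 0.0146), and the call was lost without S100A4-negative replicate 2 (limma adjusted p = 0.0508).

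**Figure D3:**
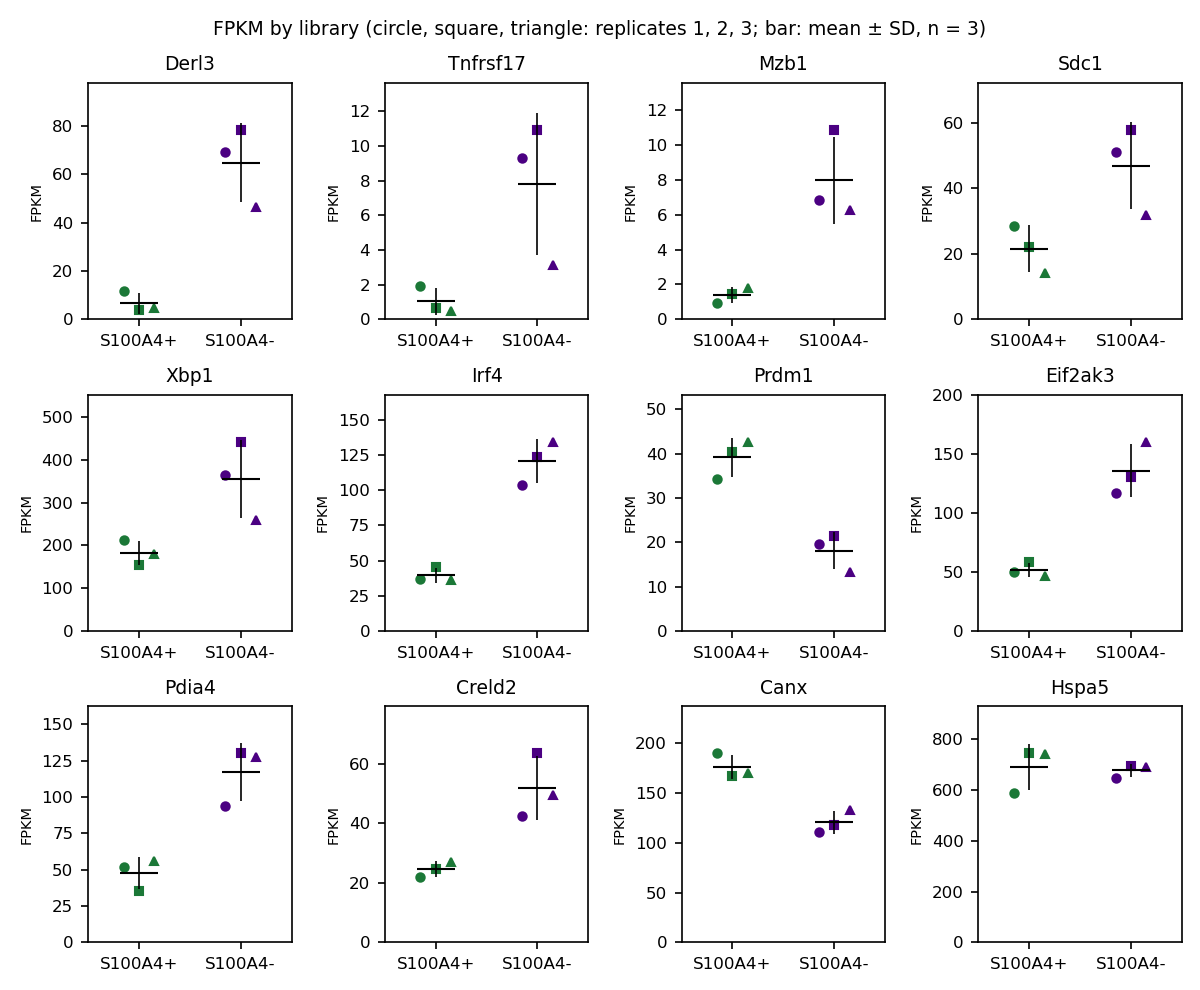
FPKM of 12 of the genes in each library on the y axis, S100A4-positive libraries on the left of each panel and S100A4-negative on the right, with symbols for replicates 1 to 3 and a bar for the mean ± SD (n = 3). The S100A4-positive libraries all lie below the S100A4-negative ones in 9 panels and above them for Prdm1 and Canx, and only the Hspa5 panel shows groups that overlap.

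ER-associated degradation, which returns misfolded proteins to the cytosol for destruction, showed the largest fall of the 42 genes beside genes that did not pass. Derl3, a derlin of the ER membrane abundant in secretory cells, had 11.7, 3.82 and 4.56 FPKM in S100A4-positive libraries, against 69.4, 78.3 and 46.6 FPKM in S100A4-negative libraries. The groups were far apart, with a log2 fold change of -3.20 (standard error 0.37, limma adjusted p = 0.000408) and a relative value of -2.84. Its mean was 9.67 times higher in S100A4-negative libraries. The paralog Derl1, which most cells use, had 127, 131 and 107 FPKM in S100A4-positive libraries and 99.5, 111 and 103 FPKM in S100A4-negative libraries, and did not pass (limma adjusted p = 0.154). After median-of-ratios rescaling Derl1 was called higher, by 0.60 (limma adjusted p = 0.00875). The ratio of Derl3 to Derl1 FPKM within a library was 0.0922, 0.0292 and 0.0425 in S100A4-positive libraries and 0.698, 0.704 and 0.455 in S100A4-negative libraries. Sel1l, the adaptor of the Hrd1 ubiquitin ligase, Herpud1, a stress-induced partner of that ligase, and Edem1, a lectin that picks out misfolded glycoproteins, had log2 fold changes of 0.22, 0.020 and -0.36. None of these passed (limma adjusted p = 0.125, 0.917 and 0.0535), though leaving out S100A4-positive replicate 1 gave a lower call for Edem1 (limma adjusted p = 0.0204). Median-of-ratios rescaling gave a higher call for Sel1l, by 0.61 (limma adjusted p = 0.00734).

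The share of antibody reads and some of the plasma cell genes had the same order among libraries, and others did not. Among S100A4-negative libraries the share of antibody reads was highest in replicate 2, then 1, then 3, and Derl3, Tnfrsf17, Mzb1, Sdc1 and Xbp1 followed that order. In all, 11 of the 42 genes, or 26.2%, did so, against 9.22% of all tested genes. Among S100A4-positive libraries replicate 1 held the most antibody reads, and Derl3, Tnfrsf17, Sdc1 and Xbp1 were also highest there, while Mzb1 and Prdm1 were lowest there. Irf4 was highest in S100A4-positive replicate 2 and, among S100A4-negative libraries, in replicate 3, which held the fewest antibody reads of that group. Prdm1 kept the order of the antibody reads among S100A4-negative libraries but was higher in the S100A4-positive group. Of the 42 genes 18, or 42.9%, had their highest S100A4-positive value in that library, against 43.1% of all tested genes. Both orders together were met by 8 of the 42, or 19.0%, against 4.54%. These orders were picked after the values were seen, and with 3 libraries a group they are a description without a test. Of 13 antibody constant and J chain genes 12 fell, with a median of -2.88, their summed level running from 3032 to 7875 FPKM in S100A4-positive libraries and from 25729 to 51442 FPKM in S100A4-negative libraries. Of 10 B cell markers 8 fell, with sums of 285 to 488 FPKM in S100A4-positive and 543 to 1552 FPKM in S100A4-negative libraries. No marker of either list was at 0 in all libraries.

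**Figure D4:**
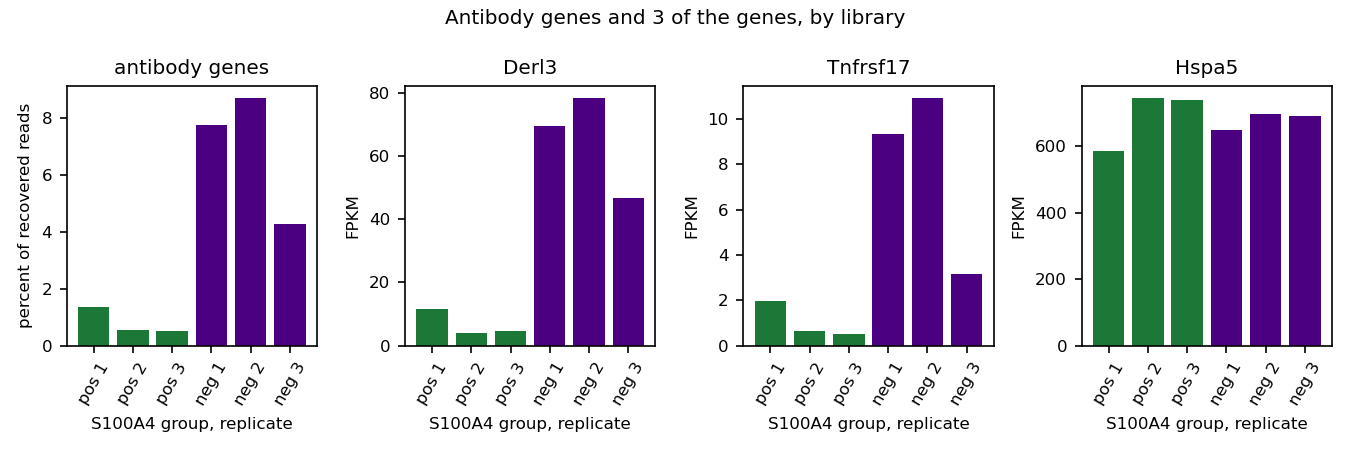
Percent of recovered reads in antibody genes, and FPKM of Derl3, Tnfrsf17 and Hspa5, on the y axes, for each S100A4-positive (left) and S100A4-negative (right) library. The antibody share is at most 1.34% in S100A4-positive and at least 4.27% in S100A4-negative libraries. Derl3 is at most 11.7 FPKM in the S100A4-positive group and at least 46.6 FPKM in the S100A4-negative group. Tnfrsf17 is at most 1.96 and at least 3.16 FPKM in the same order. Hspa5 is between 586 and 743 FPKM throughout.

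Chaperones were the largest role, with 12 genes, of which 2 fell, 1 rose and 9 did not pass. That is 16.7% lower, 8.33% higher and 25% in both directions, against 43.4%, 19.0% and 62.3% of all tested genes. Creld2, a secreted and ER-resident factor induced by ER stress, had 21.8, 24.7 and 27.1 FPKM in S100A4-positive libraries, against 42.3, 63.4 and 49.5 FPKM in S100A4-negative libraries. All S100A4-positive values were lower, with a log2 fold change of -1.03 (standard error 0.17, limma adjusted p = 0.00175). Hsp90b1, the ER paralog of HSP90 known as GRP94, had 167, 124 and 148 FPKM in S100A4-positive libraries and 216, 218 and 223 FPKM in S100A4-negative libraries. It fell by 0.59 (standard error 0.14, limma adjusted p = 0.00753), but its relative value was -0.23 and median-of-ratios rescaling ended the call. It shares 5.38% of its exon bases with genes on the same strand and 10.3% with a gene on the other strand, so its level is less certain. Canx, the membrane lectin calnexin that retains unfinished glycoproteins, had 189.6, 167 and 170.3 FPKM in S100A4-positive libraries, against 111, 118 and 133 FPKM in S100A4-negative libraries. It rose by 0.54 (standard error 0.12, limma adjusted p = 0.00660), and this call held under all 15 alternatives run.

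The most abundant of the 42 genes were Hspa5 and Calr, the only ones with a mean over 500 FPKM. Hspa5, the ER HSP70 known as BiP, had 586, 743 and 739 FPKM in S100A4-positive libraries and 648, 695 and 689 FPKM in S100A4-negative libraries. Its groups overlapped, with a log2 fold change of 0.017 (standard error 0.15, limma adjusted p = 0.926). For Hspa5, median-of-ratios rescaling gave 0.40 and no call (limma adjusted p = 0.0704). In voom with those factors Hspa5 was called higher, by 0.41 (voom adjusted p = 0.0486). Calr, the soluble lectin calreticulin, averaged 662 ± 50.7 FPKM in S100A4-positive libraries and 624 ± 19.3 FPKM in S100A4-negative libraries (SD, n = 3 each), which did not pass (limma adjusted p = 0.595). Calr was called higher after median-of-ratios rescaling, by 0.47 (limma adjusted p = 0.0225). The BiP co-chaperones Dnajb9, Dnajb11 and Dnajc3, its relative Hyou1, the nucleotide-exchange-blocking factor Manf, the stress-induced partner Sdf2l1 and the prolyl isomerase Fkbp2 had log2 fold changes from -0.33 for Dnajc3 to 0.25 for Sdf2l1, and none passed. Leaving out S100A4-positive replicate 1 gave a lower call for Dnajc3 (limma adjusted p = 0.0492), as did voom with library totals (voom adjusted p = 0.0478). Median-of-ratios rescaling gave higher calls for Dnajb11 and Sdf2l1 (limma adjusted p = 0.0117 and 0.0362).

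Protein disulfide isomerases, which make and shuffle disulfide bonds, divided. Pdia4 (ERp72) had 51.7, 35.5 and 56.1 FPKM in S100A4-positive libraries, against 94.1, 129.98 and 127 FPKM in S100A4-negative libraries. Every S100A4-positive library was lower, with a log2 fold change of -1.29 (standard error 0.21, limma adjusted p = 0.00157). P4hb, the founding isomerase PDI, had 316, 260.1 and 248 FPKM in S100A4-positive libraries and 209.96, 206 and 193 FPKM in S100A4-negative libraries. It rose by 0.43 (standard error 0.13, limma adjusted p = 0.0242), a call lost without S100A4-negative replicate 2 or 3 (limma adjusted p = 0.0598 and 0.0831). Pdia3, the partner of calnexin and calreticulin, and Pdia6 had log2 fold changes of 0.14 and 0.26 and did not pass (limma adjusted p = 0.339 and 0.0901), though both were called higher after median-of-ratios rescaling. The ratio of Pdia4 to Pdia6 FPKM within a library was 0.329, 0.245 and 0.335 in S100A4-positive libraries and 0.796, 0.938 and 0.947 in S100A4-negative libraries.

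On the deposited scale few genes of entry into the ER were called. Of the 10 genes for the Sec61 channel, the TRAP complex beside it and the signal peptidase that trims the entering chain, 1 was called. Over all tested genes 62.3% were called. That gene was Ssr3, a TRAP subunit, with 157, 139.7 and 124 FPKM in S100A4-positive libraries, against 118, 104 and 107 FPKM in S100A4-negative libraries. It rose by 0.34 (standard error 0.13, limma adjusted p = 0.0461), just past the threshold, and lost the call when any library but S100A4-positive replicate 3 was left out (limma adjusted p of 0.0562 to 0.131). Sec61a1, Sec61b and Sec61g had log2 fold changes of -0.27, 0.17 and 0.44, and Ssr1, Ssr2 and Ssr4 had 0.047, 0.093 and -0.43. The signal peptidase genes Spcs1, Spcs2 and Spcs3 had -0.26, -0.30 and -0.27. Leaving out S100A4-positive replicate 1 gave calls for Sec61a1, lower, and Sec61g, higher (limma adjusted p = 0.0413 and 0.0289). Sec61a1 was also called lower after quantile normalization, at -0.31 (limma adjusted p = 0.0381). Leaving out S100A4-negative replicate 1 gave lower calls for Ssr4 and Spcs2 (limma adjusted p = 0.0333 and 0.0400). With median-of-ratios rescaling the signs of Sec61a1 and of all the Spcs genes turned, to values of 0.085 to 0.12, none of them called. The same rescaling called 5 of the 10 genes higher, which were Sec61b, Sec61g, Ssr1, Ssr2 and Ssr3 (limma adjusted p = 0.0378, 0.0497, 0.00765, 0.00488 and 0.00339). Of all tested genes it called 27.7% higher and 52.0% in both directions.

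The sensors of the unfolded protein response did not move together. Eif2ak3, which encodes PERK, the kinase that slows translation, had 49.7, 58.7 and 46.7 FPKM in S100A4-positive libraries, against 117, 131 and 160.5 FPKM in S100A4-negative libraries. The groups were well apart, with a log2 fold change of -1.37 (standard error 0.15, limma adjusted p = 0.000342) and a relative value of -1.01. Ern1, which encodes IRE1, the nuclease that splices Xbp1 mRNA, had 49.9, 28.6 and 27.6 FPKM in S100A4-positive libraries and 37.4, 35.0 and 26.3 FPKM in S100A4-negative libraries. Its groups overlapped, S100A4-positive replicate 1 stood above the others, and the gene did not pass (log2 fold change 0.063, limma adjusted p = 0.836). Atf6, the sensor that is cut in the Golgi to become a transcription factor, had 44.9, 31.6 and 31.6 FPKM in S100A4-positive libraries and 27.8, 30.4 and 28.8 FPKM in S100A4-negative libraries. Those groups did not overlap, by a narrow margin, and the gene did not pass (log2 fold change 0.29, limma adjusted p = 0.149). Atf6 was called higher after median-of-ratios rescaling, by 0.66, and after quantile normalization, by 0.46 (limma adjusted p = 0.0101 and 0.0264).

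Downstream of PERK, Atf4, the transcription factor translated when PERK acts, had 359, 441 and 408 FPKM in S100A4-positive libraries, against 279, 307 and 327 FPKM in S100A4-negative libraries. It rose by 0.40 (standard error 0.13, limma adjusted p = 0.0328), but lost the call when any library but S100A4-positive replicate 1 was left out (limma adjusted p of 0.0546 to 0.102). Ddit3, which encodes CHOP, the pro-apoptotic factor of this branch, had 42.8, 39.2 and 38.9 FPKM in S100A4-positive libraries and 42.5, 37.7 and 49.6 FPKM in S100A4-negative libraries. Its groups overlapped and it did not pass (limma adjusted p = 0.551). The ratio of Eif2ak3 to Ern1 FPKM within a library was 0.995, 2.05 and 1.69 in S100A4-positive libraries and 3.12, 3.74 and 6.10 in S100A4-negative libraries.

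Genes with the same response element in their promoters did not share a direction. The ER stress response element (ERSE), which ATF6 with NF-Y is known to bind, was searched as CCAAT, 9 bases of any kind and CCACG, on both strands in RefSeq promoters of GRCm38.p6, from 250 bases before to 50 after the annotated start. Promoters were matched by symbol for 34 of the 42 genes, and 8 of these held the element, against 0.137% of the 27025 genes with a promoter. The stretches that hold it, with 20 bases on each side and the element in capitals, are shown because genes that share this element differed in their changes. They read 5′ to 3′ along the gene's own strand, and an element that starts with CGTGG is in the reverse orientation.
Derl3, chr10:75893222-75893280, + strand: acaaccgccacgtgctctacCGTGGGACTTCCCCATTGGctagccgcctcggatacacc
Creld2, chr15:88819500-88819558, + strand: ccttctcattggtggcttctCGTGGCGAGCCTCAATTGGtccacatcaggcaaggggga
Hsp90b1 upstream copy, chr10:86705618-86705676, - strand: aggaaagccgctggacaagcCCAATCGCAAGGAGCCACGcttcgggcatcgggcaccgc
Hsp90b1 downstream copy, chr10:86705513-86705571, - strand: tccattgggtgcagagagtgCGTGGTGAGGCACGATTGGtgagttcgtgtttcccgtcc
Dnajc3, chr14:118937807-118937865, + strand: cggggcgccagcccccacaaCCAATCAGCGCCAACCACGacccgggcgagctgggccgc
Hspa5, chr2:34772005-34772063, + strand: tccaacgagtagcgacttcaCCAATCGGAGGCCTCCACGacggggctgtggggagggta
Calr, chr8:84847055-84847113, - strand: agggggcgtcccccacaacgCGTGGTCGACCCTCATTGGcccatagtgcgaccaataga
Pdia6, chr12:17266471-17266529, + strand: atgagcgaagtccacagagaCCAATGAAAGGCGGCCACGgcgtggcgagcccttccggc
Canx, chr11:50325780-50325838, - strand: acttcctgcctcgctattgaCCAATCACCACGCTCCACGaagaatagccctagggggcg

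Of these 8 genes 3 fell, 1 rose and 4 were not called. Over all tested genes 43.4% fell and 19.0% rose, or 62.3% in both directions. Whether the 8 differ from tested genes at large was not tested. After median-of-ratios rescaling Hsp90b1 lost its lower call, and Calr and Pdia6 were called higher. On the deposited scale the median of the 8 was -0.16, in a range of -3.20 for Derl3 to 0.54 for Canx. Among the other 26 genes with a promoter 6 fell, 4 rose and 16 were not called, and their median was 0.018. The element in Derl3 ended 137 bases before the annotated start, in the reverse orientation, and that in Hspa5 ended 46 bases before it. The whole promoter windows of this pair, the gene with the largest fall and the most abundant gene, are shown with the element in capitals, at chr10:75893148-75893447 and chr2:34771840-34772139, both on the + strand.
Derl3: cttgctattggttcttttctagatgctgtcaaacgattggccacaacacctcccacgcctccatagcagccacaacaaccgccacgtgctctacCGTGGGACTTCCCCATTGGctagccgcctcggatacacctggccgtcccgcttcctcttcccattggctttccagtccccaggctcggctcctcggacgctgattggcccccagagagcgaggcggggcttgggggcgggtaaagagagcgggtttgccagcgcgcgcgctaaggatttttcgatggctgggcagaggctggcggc
Hspa5: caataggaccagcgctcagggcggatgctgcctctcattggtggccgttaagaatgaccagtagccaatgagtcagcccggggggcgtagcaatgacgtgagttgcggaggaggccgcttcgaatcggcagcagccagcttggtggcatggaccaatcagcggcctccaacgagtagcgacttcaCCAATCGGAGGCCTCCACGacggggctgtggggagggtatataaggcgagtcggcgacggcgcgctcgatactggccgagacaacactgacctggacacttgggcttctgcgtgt
A compact form of the element, ERSE-II, searched as ATTGG, 1 base of any kind and CCACG on both strands, was found in Herpud1 and Dnajb11, against 0.0444% of genes with a promoter. Neither gene passed, with log2 fold changes of 0.020 and 0.015.
Herpud1, chr8:94386357-94386407, + strand: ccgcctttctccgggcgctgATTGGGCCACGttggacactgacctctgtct
Dnajb11, chr16:22857832-22857882, + strand: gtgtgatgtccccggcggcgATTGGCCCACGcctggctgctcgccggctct
No promoter of the 34 held TGACGTGG, a binding sequence of XBP1, which 0.714% of genes hold, or the ATF4 target sequence TGATGNAAT, which 1.08% hold, both searched on both strands. At shares this low, no match among 34 promoters says little. Of the further pathway genes read below, 82 had a promoter, and 8 of these held TGACGTGG, against 1.02% of tested genes with a promoter. TGATGNAAT was found in 0 of the 82. A match is a description of these letters and not a bound site, and a window without a match says only that the letters are not in it.

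**Figure D5:**
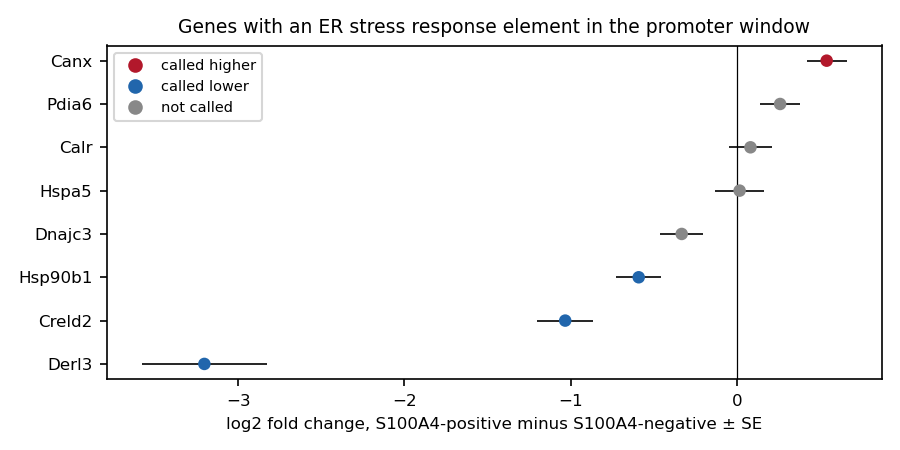
Log2 fold change on the x axis, S100A4-positive less S100A4-negative in log2(FPKM + 1), with its standard error, of the 8 genes whose promoter window holds the ER stress response element. The values run from -3.20 for Derl3 to 0.54 for Canx.

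The rest of the pathway was read from 7 lists of 97 further genes, of which 96 could be tested. Of these, 39 fell and 15 rose, or 40.6% and 15.6%, against 43.4% and 19.0% of all tested genes. The other 42 were not called, and the median was -0.25. After median-of-ratios rescaling 17 were called lower and 33 higher, while of all tested genes 24.3% were called lower and 27.7% higher. Other genes of plasma cell fate had 5 lower, 2 higher and 2 not passing of 9, or 55.6% lower and 22.2% higher. Eaf2, a partner of an elongation factor, and Pou2af1, the B cell coactivator OCA-B, had log2 fold changes of -2.19 and -2.13, and Pou2af1 averaged 26.7 ± 3.28 FPKM in S100A4-positive and 123 ± 34.3 FPKM in S100A4-negative libraries (SD, n = 3 each). Those that rose were Slamf7 and Cd93, surface proteins that myeloid cells also carry, by 1.47 and 2.82.

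Genes that hold B cells back from plasma cell fate were also divided. Bach2 and Pax5, repressors of Prdm1 and Xbp1, had log2 fold changes of -1.73 and -1.39, and Bcl6, a repressor of Prdm1, rose by 1.18. All 3 passed the test. Bach2 averaged 11.5 ± 1.45 FPKM in S100A4-positive libraries and 41.6 ± 13.0 FPKM in S100A4-negative libraries (SD, n = 3 each), and Bcl6 averaged 58.0 ± 4.68 FPKM in S100A4-positive and 25.5 ± 6.54 FPKM in S100A4-negative libraries.

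Folding, degradation and entry genes outside the 42 were called lower in 42.9%, 53.3% and 42.9% of their lists, against 43.4% of all tested genes. Their medians less that of all tested genes were 0.084, 0.057 and 0.058. Further folding and redox genes had 6 lower, 3 higher and 5 not passing of 14. Txndc5, a disulfide isomerase abundant in plasma cells, averaged 39.2 ± 12.5 FPKM in S100A4-positive and 151 ± 37.2 FPKM in S100A4-negative libraries (SD, n = 3 each) and fell by 1.93 (standard error 0.26, limma adjusted p = 0.000700). Fkbp11, a prolyl isomerase of secretory cells, fell by 1.35, whereas Pdia5 and Dnajc10, further redox chaperones, rose by 1.97 and 0.68. Further degradation genes had 8 lower and 7 not passing of 15, with Syvn1, the Hrd1 ligase, and Edem3 at -1.10 and -1.06. Further translocation and glycosylation genes had 9 lower, 1 higher and 11 not passing of 21. Srprb, a subunit of the signal recognition particle receptor, and Sec11c, a catalytic subunit of signal peptidase, had log2 fold changes of -0.88 and -0.82, and Magt1 rose by 0.49.

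Transport from the ER to the Golgi and the stress response were read in the same way. ER to Golgi genes had 7 lower, 2 higher and 9 not passing of 18 tested. That is 38.9% lower and 11.1% higher, against 43.4% and 19.0% of all tested genes. Sec23a and Sec24c, coat proteins of the vesicles that leave the ER, had log2 fold changes of -0.59 and -0.55. Mcfd2, a cargo receptor subunit, rose by 1.88, and Tmed10 by 0.40. Further genes of the unfolded protein and integrated stress responses had 6 higher, 2 lower and 8 not passing of 16. That is 37.5% higher and 12.5% lower. Cebpb, a transcription factor of myeloid cells and of stress, averaged 230.4 ± 85.1 FPKM in S100A4-positive and 28.4 ± 4.91 FPKM in S100A4-negative libraries (SD, n = 3 each), a rise of 2.91. Atf3, a stress-induced factor also used by macrophages, rose by 2.33. Creb3l2, a membrane-bound factor related to ATF6, fell by 1.93, and Mbtps1, the protease that cuts ATF6, fell by 0.83. The macrophage marker sums given above were also higher in S100A4-positive libraries, and their part in these changes was not tested.

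Markers of other cell types were also read. Of 8 plasmacytoid dendritic cell markers 3, or 37.5%, were called lower, against 43.4% of all tested genes, and 5 were not called. Their sums were 154 to 176 FPKM in S100A4-positive and 194 to 341 FPKM in S100A4-negative libraries. All 7 conventional dendritic cell markers rose, with sums of 355 to 509 FPKM in S100A4-positive and 44.1 to 68.3 FPKM in S100A4-negative libraries. Neutrophil markers had 8 of 9 lower, and natural killer cell markers 4 of 4 tested. Neutrophil markers summed to 413 to 1721 FPKM in S100A4-positive and 3274 to 4878 FPKM in S100A4-negative libraries, and the natural killer markers to 19.9 to 41.7 FPKM in S100A4-positive and 175 to 251 FPKM in S100A4-negative libraries.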

How the data were processed

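RNA was measured in 3 S100A4-positive and 3 S100A4-negative libraries. The authors deposited FPKM per gene and library. Per the submitters' processing notes, HISAT2 2.1.0, Cufflinks and Cuffnorm were used on mm10, without saying which made which value. A second deposited table compares the groups. Its columns, per the file headers, hold normalized read counts averaged by group (a signal), the log2 fold change and p-values. It names no test. Whole reads were recovered from both tables: all 135018 values above 0 lay within 0.02 of a whole read. The counting tool and its use of strand are not given in the sources used here, so genes with overlaps or near copies are uncertain.

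Groups were compared with limma (version 3.58.1, R version 4.3.3). The values were log2(FPKM + 1), the prior variance followed a trend, and p-values were adjusted by Benjamini-Hochberg over the 13241 genes that averaged 1 FPKM or more. The other 42710 genes were left out. Steps were tested on simulated data. Exon overlaps come from GENCODE M21 (GRCm38). Python 3.11.15, numpy 2.4.6, pandas 2.3.3 and matplotlib 3.10.9 were used. The 42 genes, the lists and the tests were chosen with earlier results of these data known. Values in every library are given for the called genes of each role with the largest change, up to 2 a direction, and for all transcription factors and sensors; Sdc1, Hspa5, Derl1 and the ratios were added after their values were seen. Pathway genes named are up to 2 called per direction and list. Alternatives were another pseudocount, no filter or a filter of 5, 2 rescalings, no trend, the replicate number as a block, and leaving out each library; voom on recovered reads was added after seeing the data.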

Additional observations from a re-analysis of the deposited data

How the results depend on the processing

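Of the 15 called genes, 9 kept their call and direction under every alternative in which they were tested: Irf4, Prdm1, Mzb1, Tnfrsf17, Canx, Creld2, Pdia4, Derl3 and Eif2ak3. Creld2 was not called in the authors' deposited table. The genes called higher numbered 5, against 3 with no filter, 17 after median-of-ratios rescaling, 18 in voom with those factors and 2 to 5 when 1 library was left out, the 2 being reached without S100A4-negative replicate 2 or 3. With no filter the calls of Ssr3 and Atf4 were lost (limma adjusted p = 0.0742 and 0.0679), and Ssr3 was also lost with no trend (0.0638) and Atf4 after quantile normalization (0.0652). The median log2 fold change of the 42 genes, -0.028, was 0.35 after median-of-ratios rescaling, 0.043 after quantile normalization and 0.36 in voom with median-of-ratios factors. Less the median of all tested genes it was 0.33, against 0.032 with no filter, 0.20 after quantile normalization and 0.25 to 0.37 with 1 library left out. All genes called lower numbered 5741, against 3217 after median-of-ratios rescaling and 3156 in voom with those factors. Pathway genes called higher and lower were 15 and 39, against 33 and 17 after that rescaling and 34 and 17 in voom. Signs near 0 turned, none of them called on either side. Median-of-ratios rescaling gave Hyou1 0.31, Dnajb9 0.14, Dnajc3 0.038, Manf 0.22, Edem1 0.026, Sec61a1 0.11, Spcs1 0.12, Spcs2 0.085, Spcs3 0.097 and Ddit3 0.28, and voom with those factors gave 0.31, 0.14, 0.040, 0.22, 0.025, 0.11, 0.13, 0.087, 0.10 and 0.29 in the same order. These values differ from the deposited scale by the shift of the library factors. Quantile normalization gave Hyou1 0.038, Herpud1 -0.018 and Ddit3 0.049, and the cause was not tested. With 1 library left out the ranges were Ern1 -0.21 to 0.21, Hspa5 -0.041 to 0.13, Hyou1 -0.14 to 0.026, Herpud1 -0.079 to 0.13, Dnajb11 -0.028 to 0.056, Fkbp2 -0.19 to 0.19 and Ddit3 -0.19 to 0.0072.

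As a check of pairing, same-numbered libraries deviated together with correlations of 0.376, 0.083 and 0.366 for numbers 1, 2 and 3. S100A4-positive replicates 1 and 3 each correlated best with the S100A4-negative library of their own number. Across these numbers the correlations were -0.379 and -0.279. S100A4-positive replicate 2 correlated best with S100A4-negative replicate 3, at 0.146. The check does not settle whether the numbers pair the samples, and the main test left them unpaired. With the replicate number as a block, 6 genes were called higher and 12 lower, which adds Sec61g (0.44, limma adjusted p = 0.0110), Sec61a1 (-0.27, limma adjusted p = 0.0444) and Ssr4 (-0.43, limma adjusted p = 0.0153). Mzb1 and Tnfrsf17 rest on few reads, and 3 libraries a group limit what can be said of small changes. A filter of 5 left Mzb1 and Tnfrsf17 untested.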
